A study of Mus musculus with 15 samples.

Results

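Riebeckite asbestos and tremolite asbestos were compared by the transcriptomes of 3 macrophage libraries each, 6 of the 15 libraries in the study, with 3 libraries of untreated cells as the common starting point. The cells were MPI cells, a self-renewing mouse macrophage culture from C57BL6/J fetal liver that is kept in the growth factor GM-CSF and is used as a model of alveolar macrophages. The labels give no engineered allele, and all groups grew in the same medium. One group was given 9 µg/cm² of riebeckite asbestos for 24 h and another 5 µg/cm² of tremolite asbestos for 24 h. The labels call these doses equivalent in fibre surface area, so mass dose and mineral cannot be told apart. The untreated group has the agent "none" in the labels, although a description shared by all samples also mentions a vehicle. The remaining 6 libraries, after 40 µg/cm² of riebeckite or 60 µg/cm² of tremolite cleavage fragments, served to ask whether a difference between the minerals was the same in both habits. Genes with at least 0.5 FPKM in at least 3 of the 15 libraries were examined, 10616 of the 10653 in the gene table. FPKM counts fragments scaled to transcript length and to all mapped fragments of a library. Nearest to that limit, by the third highest of the 15 values, were Ces2b just inside at 0.50 FPKM and Selenbp2 just outside at 0.499 FPKM.

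Riebeckite and tremolite are amphiboles, silicate minerals that can grow as thin, long fibres. Riebeckite in this form, known as crocidolite or blue asbestos, is rich in iron and sodium, whereas tremolite is a calcium and magnesium silicate. Macrophages take up fibres through scavenger and other receptors, and fibres that are too long to be enclosed are known for incomplete phagocytosis, release of oxidants and activation of the inflammasome, which matures interleukin 1β.

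Library totals lay close together, with summed FPKM of 261986 to 263938 after riebeckite asbestos, 257601 to 266393 after tremolite asbestos and 257329 to 262169 in untreated cells. The read depth is unknown. Spearman's rho over genes was 0.989 to 0.991 within either asbestos group and 0.979 to 0.985 between them, and no library repeated another (0 identical pairs). Whether libraries of one group stem from separate cultures is not in the labels. The p-values set a difference against the scatter of libraries within groups, estimated over all groups, and that scatter may therefore be technical. All 8 macrophage markers on the list were measured, in 9 lines of the gene table. At a limma adjusted p under 0.05, 1 line was higher after riebeckite than after tremolite asbestos. Another 2 were lower, among them Fcgr1 (log2 difference -0.74), and 6 did not pass, among them Cd68. Over all genes 15.5% were higher and 11.0% lower. Cd68, a macrophage sialomucin, stood at 890.5, 829 and 875 FPKM after riebeckite asbestos, against 852, 771 and 841 FPKM after tremolite asbestos. Lymphocyte, mast cell, erythroid and hepatocyte markers were not among the genes tested. Of 6 dendritic cell markers 1 was tested, Clec9a. It averaged 11.5 FPKM after riebeckite asbestos, 12.4 FPKM after tremolite asbestos and 9.00 FPKM in untreated cells. Of 10 fibroblast, epithelial and endothelial markers 1 was tested, Cdh1. It averaged 25.7 FPKM after riebeckite asbestos, 35.6 FPKM after tremolite asbestos and 53.3 FPKM in untreated cells. For Cdh1 the log2 difference between the minerals was -0.46 (limma adjusted p = 0.000137). Of 10 neutrophil markers 3 were tested, and their summed level was 70.1 to 72.6 FPKM after riebeckite asbestos, 38.7 to 48.0 FPKM after tremolite asbestos and 30.8 to 35.1 FPKM in untreated cells. These 3 were S100a8, Cxcr2 and Mmp8, while S100a9, Ly6g, Csf3r, Elane, Camp, Ngp and Ltf were not among the genes tested. Interferon-stimulated genes set single libraries apart, and this is given with those genes. Levels come from bulk RNA, in which fewer cells of a type and less RNA per cell cannot be told apart.

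Among genes that differed between the minerals and that both moved the same way, riebeckite asbestos mostly moved them farther, and few were moved in opposite directions. Directly compared, 1645 genes were higher after riebeckite asbestos (15.5% of those tested) and 1171 were lower (11.0%), at a Benjamini-Hochberg adjusted p under 0.05 in limma, on the log2(FPKM + 1) scale. The excess of higher genes depended on the scaling. Of the called genes 58.4% were higher here, and 50.1% to 50.2% under TMM rescaling, quantile normalization or rescaling to nuclear genes. Differences were mostly small, with a median absolute log2 difference of 0.258 among the 2816 called, and 51 of them reached 1. The 3 riebeckite asbestos libraries did not overlap the 3 tremolite asbestos libraries for 4315 genes (40.6%). Against untreated cells, riebeckite asbestos raised 2232 genes (21.0%) and lowered 2575 (24.3%), and tremolite asbestos raised 1062 (10.0%) and lowered 1478 (13.9%). Both of these comparisons use the same 3 untreated libraries, so they are not independent of each other.

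The called genes were sorted by what each asbestos did relative to untreated cells. Both minerals moved 986 genes the same way, 35.0% of the called genes, so that these differed in size only. In 952 of the 986 riebeckite asbestos was farther from untreated cells, with 530 rises and 422 falls, and in 34 tremolite asbestos was farther, with 16 rises and 18 falls. Only 23 genes, 0.817% of the called ones, passed the test against untreated cells in opposite directions. Another 1334 genes (47.4%) were called against untreated cells after riebeckite asbestos alone and 180 (6.39%) after tremolite asbestos alone, which does not show that the other mineral left them as they were. The last 293 genes were called in neither. Leaving out 1 library moved some of these counts by more than 1.5 times. The 34 became 22, 21 and 21 without riebeckite asbestos library 1, 2 or 3 and 21 without tremolite asbestos library 3, and the 1334 became 874 without riebeckite asbestos library 1. The 180 became 112 without tremolite asbestos library 3, and the 293 became 189 without riebeckite asbestos library 1, 191 and 171 without tremolite asbestos library 2 or 3 and 454 without untreated library 3. By the sign of the estimates alone, without a call, 1995 genes went the same way, 1866 of them farther after riebeckite asbestos, and 821 went opposite ways.

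**Figure D1:**
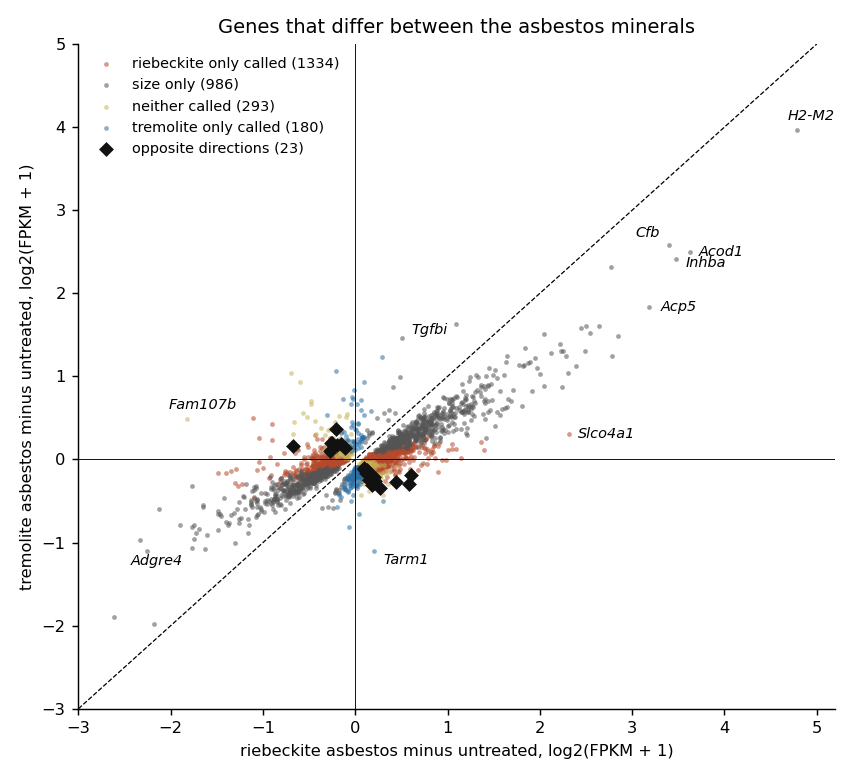
Each point is 1 of the 2816 genes that differed between riebeckite and tremolite asbestos, at its log2(FPKM + 1) difference from untreated cells after riebeckite asbestos (horizontal axis) and after tremolite asbestos (vertical axis), coloured by class. On the dashed line both differences are equal. The 986 genes of the size class lie mostly below the line on the right and above it on the left, farther out after riebeckite asbestos, and the 23 genes that moved in opposite directions (black diamonds) lie close to the origin.

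**Figure D2:**
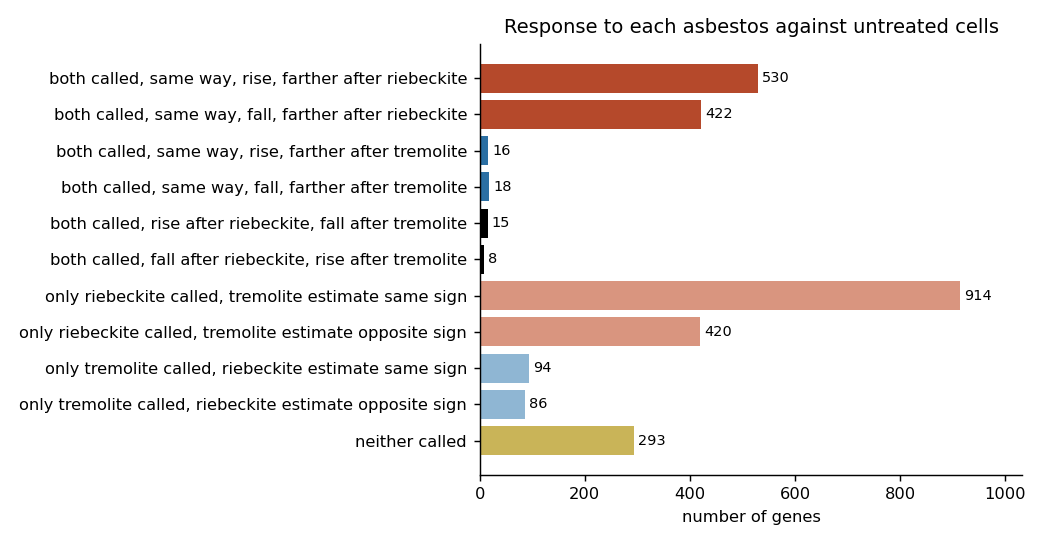
Bars give the number of genes in each class of response against untreated cells, among the 2816 genes that differed between the minerals. Rises and falls that were farther after riebeckite asbestos number 530 and 422, and those farther after tremolite asbestos 16 and 18. Genes with opposite directions number 15 and 8.

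H2-M2, Acod1, Inhba and Cfb were raised by both minerals, and farther by riebeckite asbestos. H2-M2, of the non-classical class I genes of the MHC (ENSMUSG00000016283.13, chr17:37480851-37483552, minus strand, GRCm38), stood at 47.8, 50.8 and 43.6 FPKM after riebeckite asbestos, 24.2, 29.9 and 25.8 FPKM after tremolite asbestos and 0.778, 0.7005 and 0.789 FPKM in untreated cells. All asbestos libraries were far above the untreated ones, and the riebeckite asbestos libraries were above every tremolite asbestos library. The log2 difference between the minerals was 0.81 (SE 0.080, limma adjusted p = 1.17e-05), beside 4.78 and 3.97 for riebeckite and tremolite asbestos against untreated cells. Acod1, whose enzyme makes the antimicrobial metabolite itaconate (ENSMUSG00000022126.6, chr14:103046977-103056573, plus strand), stood at 19.3, 23.04 and 18.1 FPKM after riebeckite asbestos, 8.79, 8.82 and 8.45 FPKM after tremolite asbestos and 0.671, 0.790 and 0.669 FPKM in untreated cells. Its groups were ordered in the same way, with a difference between the minerals of 1.12 (SE 0.071, limma adjusted p = 5.78e-07). Inhba, which encodes the subunit that forms activin A (ENSMUSG00000041324.14, chr13:16011851-16031621, plus strand), stood at 31.7, 33.1 and 33.0 FPKM after riebeckite asbestos, 13.8, 17.6 and 14.2 FPKM after tremolite asbestos and 2.09, 1.75 and 2.24 FPKM in untreated cells. The difference between the minerals was 1.06 (SE 0.084, limma adjusted p = 2.39e-06). Cfb, a component of the alternative complement pathway, averaged 123 ± 13.8 FPKM after riebeckite asbestos, 69.1 ± 5.64 FPKM after tremolite asbestos and 10.8 ± 0.943 FPKM in untreated cells (SD, n = 3 each), and the minerals differed by 0.82 (SE 0.088, limma adjusted p = 2.42e-05).

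The shared rises with the largest differences between the minerals were those of Slc6a12, Csn2, Hp, Acp5, Awat1 and Arap3. Slc6a12, a transporter of betaine and GABA (ENSMUSG00000030109.15, chr6:121343076-121365775, plus strand), stood at 50.4, 40.6 and 40.1 FPKM after riebeckite asbestos, 14.3, 15.3 and 13.4 FPKM after tremolite asbestos and 5.17, 5.53 and 5.77 FPKM in untreated cells, a ratio of 3.05 of riebeckite over tremolite asbestos between the asbestos groups and a log2 difference of 1.54 (SE 0.082, limma adjusted p = 2.49e-07). The osteoclast phosphatase gene Acp5 stood at 35.6, 37.2 and 33.2 FPKM after riebeckite asbestos, 13.6, 13.5 and 12.7 FPKM after tremolite asbestos and 3.17, 3.08 and 2.72 FPKM in untreated cells. It differed by 1.35 (SE 0.084, limma adjusted p = 5.28e-07). Hp, haptoglobin, which binds free hemoglobin, stood at 41.4, 37.5 and 27.4 FPKM after riebeckite asbestos, 13.4, 12.5 and 13.2 FPKM after tremolite asbestos and 3.96, 3.59 and 4.48 FPKM in untreated cells. Its lowest riebeckite asbestos library was still above every tremolite asbestos library, and the difference was 1.36 (SE 0.12, limma adjusted p = 6.73e-06). The largest rises were picked among genes without overlap between the minerals, so this separation is no separate support. Csn2, the milk protein β-casein, differed by 1.36, Awat1, a wax alcohol acyltransferase, by 1.27 and Arap3, a protein that switches off small GTPases, by 1.27 on the log2 scale. Gpr84, a receptor for medium-chain fatty acids, differed by 1.19 and Procr, the protein C receptor, by 1.16. Cxcr2, a receptor for neutrophil-attracting chemokines and itself one of the neutrophil markers, stood at 12.4, 14.01 and 13.998 FPKM after riebeckite asbestos, 4.60, 6.17 and 5.70 FPKM after tremolite asbestos and 2.45, 2.61 and 2.46 FPKM in untreated cells. S100a8, the other neutrophil marker that was called, differed by 0.68, and Mmp8 was not called (-0.088, limma adjusted p = 0.669). The part of neutrophil-like cells in these results was not tested.

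**Figure D3:**
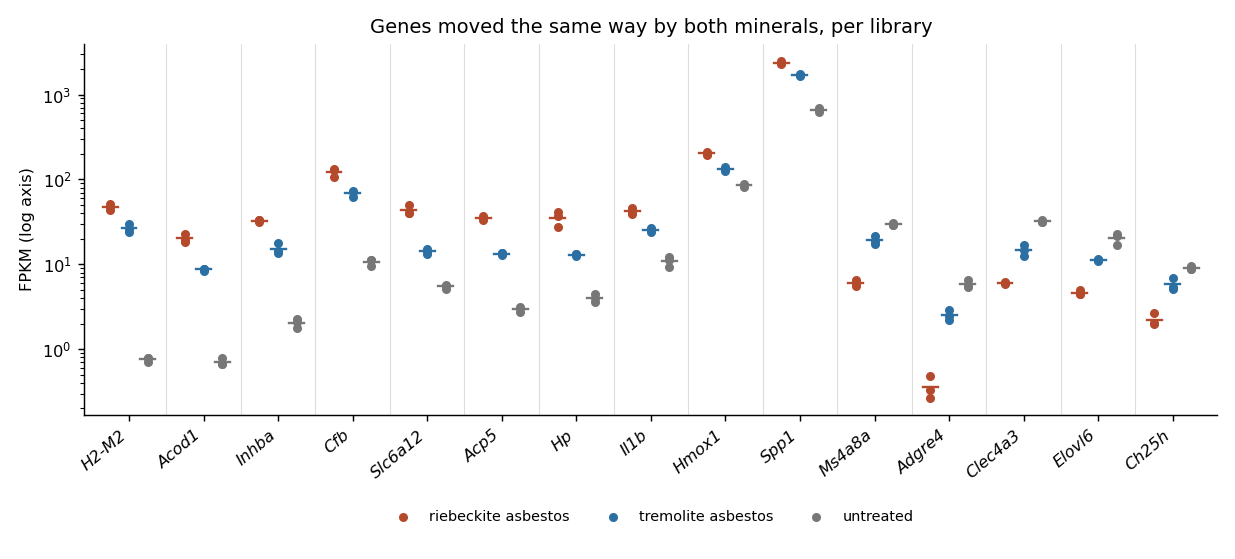
FPKM (log axis) of 15 genes that both minerals moved the same way, with 1 point per library and a line at the group mean, in the order riebeckite asbestos, tremolite asbestos and untreated cells. For each gene the tremolite asbestos libraries lie between the other groups, for H2-M2 at 24.2 to 29.9 FPKM, and the riebeckite asbestos libraries are farther from the untreated ones. All are of the class moved farther by riebeckite asbestos, so this order follows largely from the choice.

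Shared falls included receptors of the macrophage surface. Ms4a8a, of the membrane-spanning 4A family (ENSMUSG00000024730.7, chr19:11067471-11081102, minus strand), stood at 6.05, 6.52 and 5.59 FPKM after riebeckite asbestos, 21.7, 17.5 and 19.0 FPKM after tremolite asbestos and 29.4, 29.4 and 30.6 FPKM in untreated cells. The libraries fell into 3 separate levels, and the minerals differed by -1.53 (SE 0.068, limma adjusted p = 7.54e-08). Adgre4, an adhesion receptor of the F4/80 family, stood at 0.489, 0.331 and 0.265 FPKM after riebeckite asbestos, 2.87, 2.19 and 2.44 FPKM after tremolite asbestos and 5.48, 5.47 and 6.6002 FPKM in untreated cells. Every riebeckite asbestos library was below every tremolite asbestos library, a difference of -1.36 (SE 0.10, limma adjusted p = 1.45e-06). For Ms4a8a and Adgre4 the separation of the minerals was a condition of being named and is no separate support. Clec4a3, a C-type lectin receptor, averaged 5.99 ± 0.157 FPKM after riebeckite asbestos, 14.6 ± 2.29 FPKM after tremolite asbestos and 32.3 ± 0.997 FPKM in untreated cells (SD, n = 3 each), and the minerals differed by -1.15. Olfm1, a secreted olfactomedin, differed by -1.45, Elovl6, a fatty acid elongase, by -1.12, and Gbp8, a guanylate-binding protein, by -1.11. Ch25h, which makes 25-hydroxycholesterol, stood at 2.03, 1.99 and 2.66 FPKM after riebeckite asbestos, 6.91, 5.40 and 5.15 FPKM after tremolite asbestos and 9.53, 8.76 and 8.86 FPKM in untreated cells, a difference of -1.08 (SE 0.12, limma adjusted p = 3.92e-05). The transcription factor genes Klf2 and Myc differed by -0.70 and -0.61. Reads of Clec4a and Gbp family members can be shared between near-identical genes, so their values are uncertain.

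In 34 genes the size order was turned round, and tremolite asbestos moved them farther. Tgfbi, a matrix protein induced by TGF-β (ENSMUSG00000035493.10, chr13:56609523-56639562, plus strand), stood at 5.52, 6.35 and 5.22 FPKM after riebeckite asbestos, 12.1, 12.7 and 11.0 FPKM after tremolite asbestos and 3.69, 3.60 and 3.81 FPKM in untreated cells. Both minerals raised it, by 0.51 after riebeckite and 1.46 after tremolite asbestos, and the minerals differed by -0.95 (SE 0.067, limma adjusted p = 1.08e-06). Emp1, a membrane protein, stood at 3.18, 2.91 and 2.90 FPKM after riebeckite asbestos, 4.84, 4.82 and 4.65 FPKM after tremolite asbestos and 0.864, 0.919 and 0.828 FPKM in untreated cells. Cdkn1c, the cyclin-dependent kinase inhibitor p57, averaged 0.504 ± 0.0614 FPKM after riebeckite asbestos, 1.15 ± 0.139 FPKM after tremolite asbestos and 0.0748 ± 0.0313 FPKM in untreated cells (SD, n = 3 each). Dusp6, a phosphatase of ERK kinases, differed by -0.46. The falls that were farther after tremolite asbestos included Rrm2, a subunit of ribonucleotide reductase, with -0.37 after riebeckite and -0.59 after tremolite asbestos, and Uhrf1, which couples DNA methylation to replication, with -0.17 and -0.49 in the same order. The 16 rises and 18 falls of this kind are few beside the 530 and 422 on the other side.

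Some of the largest differences came from genes that passed the test against untreated cells after riebeckite asbestos alone. Slco4a1, an organic anion transporter (ENSMUSG00000038963.15, chr2:180456245-180474867, plus strand), had the largest rise of the named genes and stood at 10.3, 6.68 and 7.69 FPKM after riebeckite asbestos, 1.41, 1.44 and 0.993 FPKM after tremolite asbestos and 0.890, 0.815 and 0.783 FPKM in untreated cells. It was 6.43 times as high after riebeckite as after tremolite asbestos, a log2 difference of 2.004 (SE 0.13, limma adjusted p = 5.65e-07). The estimate for tremolite asbestos against untreated cells was 0.31 (limma adjusted p = 0.0945). Pla2g2d, a secreted phospholipase A2, stood at 2.46, 1.98 and 2.28 FPKM after riebeckite asbestos, 0.424, 0.194 and 0.387 FPKM after tremolite asbestos and 0.157, 0.228 and 0.311 FPKM in untreated cells. Fn1, fibronectin, a matrix glycoprotein, stood at 1.54, 1.45 and 1.86 FPKM after riebeckite asbestos, 5.54, 5.29 and 4.70 FPKM after tremolite asbestos and 4.80, 6.40 and 6.59 FPKM in untreated cells. Only its riebeckite asbestos libraries were apart from the untreated ones, and the minerals differed by -1.24 (SE 0.099, limma adjusted p = 2.53e-06). Emilin2, an elastic fibre protein, behaved alike, with 11.4, 12.5 and 14.97 FPKM after riebeckite asbestos, 41.9, 32.6 and 27.8 FPKM after tremolite asbestos and 35.2, 39.0 and 39.4 FPKM in untreated cells and a difference of -1.32 (SE 0.12, limma adjusted p = 7.98e-06). Tarm1, an activating receptor of myeloid cells, was instead called against untreated cells after tremolite asbestos alone. It stood at 2.03, 2.14 and 2.52 FPKM after riebeckite asbestos, 0.240, 0.281 and 0.388 FPKM after tremolite asbestos and 1.60, 1.76 and 2.06 FPKM in untreated cells, with the riebeckite asbestos and untreated libraries overlapping and the tremolite asbestos libraries below both.

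Fam107b had the largest fall of the named genes, and its call was not stable. It stood at 3.41, 3.06 and 5.93 FPKM after riebeckite asbestos, 21.5, 24.1 and 25.4 FPKM after tremolite asbestos and 27.5, 5.27 and 29.4 FPKM in untreated cells, so that 1 of the 3 untreated libraries was as low as the riebeckite asbestos libraries. The log2 difference between the minerals was -2.30 (SE 0.75, limma adjusted p = 0.0388), it was called against untreated cells after neither mineral, and leaving out any 1 of the 6 asbestos libraries ended the call (limma adjusted p = 0.0541 to 0.102).

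The 23 genes with opposite directions were moved by small amounts, at most by -0.67 after riebeckite asbestos (Clec4n) and 0.37 after tremolite asbestos (Fpr2), and genes of lipid supply were among those that rose after riebeckite asbestos. Slco2a1, the prostaglandin transporter (ENSMUSG00000032548.14, chr9:102988712-103096002, plus strand), stood at 7.15, 6.73 and 6.65 FPKM after riebeckite asbestos, 3.42, 3.12 and 3.29 FPKM after tremolite asbestos and 4.36, 4.25 and 4.10 FPKM in untreated cells. The 3 groups did not overlap, riebeckite asbestos differed from untreated cells by 0.58 and tremolite asbestos by -0.29, and the minerals differed by 0.88 (SE 0.050, limma adjusted p = 3.48e-07). Acat2, the thiolase that starts the mevalonate pathway (ENSMUSG00000023832.13, chr17:12942890-12960747, minus strand), stood at 36.6, 40.4 and 36.2 FPKM after riebeckite asbestos, 22.1, 22.02 and 20.1 FPKM after tremolite asbestos and 24.1, 24.5 and 24.8 FPKM in untreated cells. It differed by 0.60 and -0.19 from untreated cells and by 0.79 (SE 0.052, limma adjusted p = 7.10e-07) between the minerals. Fasn, fatty acid synthase (ENSMUSG00000025153.9, chr11:120805846-120824547, minus strand), stood at 59.7, 54.2 and 55.7 FPKM after riebeckite asbestos, 39.0, 36.4 and 34.4 FPKM after tremolite asbestos and 48.7, 48.5 and 43.1 FPKM in untreated cells. It differed by 0.27 and -0.35 from untreated cells and by 0.61 (SE 0.057, limma adjusted p = 7.17e-06) between the minerals. Mboat1, a lysophospholipid acyltransferase, averaged 3.996 ± 0.230 FPKM after riebeckite asbestos, 2.05 ± 0.286 FPKM after tremolite asbestos and 2.69 ± 0.293 FPKM in untreated cells (SD, n = 3 each). Others up after riebeckite and down after tremolite asbestos were Abcc3 (a drug and bile salt exporter, 0.49 between the minerals), Gcat (glycine C-acetyltransferase, 0.47), Hmg20b (a subunit of a corepressor complex, 0.42), Tsfm (mitochondrial translation, 0.40), Sc5d (sterol desaturase, 0.39), Camk1 (a calmodulin-dependent kinase, 0.28), Trim8 (0.25), Aldoc (an aldolase, 0.23), Cycs (cytochrome c, 0.22) and Samm50 (mitochondrial outer membrane assembly, 0.20).

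Of the 8 genes that fell after riebeckite and rose after tremolite asbestos 4 encode receptors, Clec4n, Fpr2, Msr1 and Fas. Clec4n, dectin-2, a lectin receptor for fungal mannans (ENSMUSG00000023349.14, chr6:123229843-123247021, plus strand), stood at 38.0, 41.3 and 43.0 FPKM after riebeckite asbestos, 74.4, 68.1 and 77.2 FPKM after tremolite asbestos and 65.3, 65.5 and 65.5 FPKM in untreated cells. Fpr2, a formyl peptide receptor (ENSMUSG00000052270.7, chr17:17887824-17893952, plus strand), stood at 37.2, 37.9 and 36.5 FPKM after riebeckite asbestos, 56.5, 55.003 and 56.2 FPKM after tremolite asbestos and 43.5, 43.1 and 42.7 FPKM in untreated cells. Its 3 groups were narrow and apart, with -0.21 after riebeckite asbestos, 0.37 after tremolite asbestos and -0.58 (SE 0.028, limma adjusted p = 1.19e-07) between the minerals. Msr1, scavenger receptor A, which binds particles and fibres, stood at 21.4, 22.4 and 21.0 FPKM after riebeckite asbestos, 27.9, 28.6 and 28.5 FPKM after tremolite asbestos and 25.8, 26.0 and 27.1 FPKM in untreated cells, and differed by -0.38 (SE 0.034, limma adjusted p = 6.79e-06). Fas, the death receptor, averaged 13.0 ± 0.459 FPKM after riebeckite asbestos, 17.1 ± 0.233 FPKM after tremolite asbestos and 15.05 ± 0.627 FPKM in untreated cells (SD, n = 3 each) and differed by -0.37. The others were Cd52, a surface glycoprotein (-0.45), Sorbs3, an adaptor at cell adhesions (-0.33), Dhrs3, a retinal reductase (-0.25), and B3galt4, a galactosyltransferase (-0.46), which stayed below 1 FPKM in the asbestos and untreated libraries. In none of the 23 genes did the riebeckite asbestos, tremolite asbestos and untreated libraries overlap. The genes were chosen by contrasts of these same libraries, so this separation follows largely from the choice and is no separate support.

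Membership of this small class depended on the libraries and the scaling. The count was 16 without riebeckite asbestos library 1, 28 without library 2 and 15 without library 3 of that group, 18, 24 and 14 without tremolite asbestos library 1, 2 or 3, and 13, 12 and 11 without untreated library 1, 2 or 3, and it was 12 after rescaling to nuclear genes, 13 with only the 3 groups in the fit and 5 from sums of transcripts. Fas, Fasn, Camk1, Slco2a1 and Fpr2 stayed in the class whichever of the 9 libraries was left out. Other members were less stable. Acat2 stayed in 6 of these 9 fits, Clec4n and Msr1 in 4, Gcat and Samm50 in 2, and Mboat1 and Cycs in 1. In sums of transcripts the difference between the minerals was no longer called for Camk1, Cd52 and Dhrs3 (limma adjusted p = 0.336, 0.227 and 0.224).

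**Figure D4:**
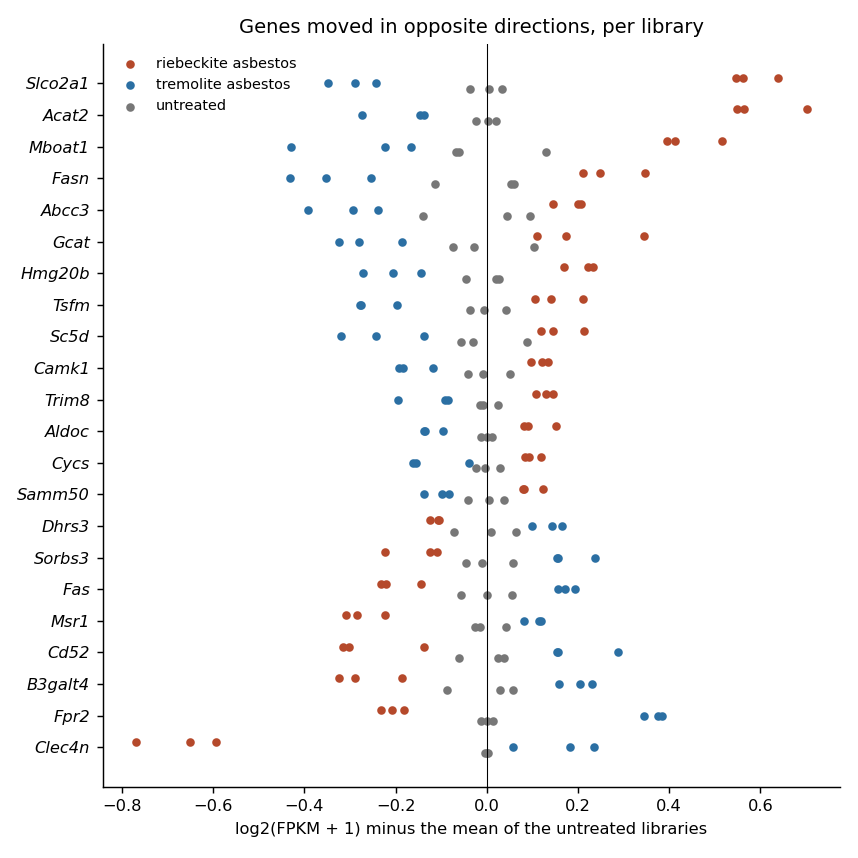
For 22 of the 23 genes that the minerals moved in opposite directions, points give log2(FPKM + 1) of each library minus the mean of the 3 untreated libraries, for riebeckite asbestos, tremolite asbestos and untreated cells. The riebeckite and tremolite asbestos points of each gene lie on opposite sides of 0, for Slco2a1 and Clec4n farthest apart, and the untreated points scatter around 0.

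Many genes of cholesterol and fatty acid supply were higher after riebeckite than after tremolite asbestos. Cholesterol is made from acetyl-CoA through the mevalonate pathway, and its genes, like those of fatty acid synthesis, are known as targets of SREBP transcription factors, which act together with NF-Y at the CCAAT box. Of 27 tested genes of sterol synthesis and uptake 15 were higher after riebeckite asbestos and 0 were lower, where 15.5% and 11.0% of all genes were (limma, and 17 and 0 at an unadjusted p under 0.05). The median log2 difference of the list was 0.19, beside 0.014 over all genes. Relative to untreated cells, 14 members were higher and 3 lower after riebeckite asbestos, against 0 higher and 7 lower after tremolite asbestos (1 and 9 at an unadjusted p under 0.05). Over all genes these shares were 21.0% and 24.3% after riebeckite asbestos and 10.0% and 13.9% after tremolite asbestos. The median of the list was 0.16 after riebeckite and -0.076 after tremolite asbestos. By class, 3 of the 15 were moved in opposite directions (Acat2 and Sc5d among them), 10 were called against untreated cells after riebeckite asbestos alone, 1 after tremolite asbestos alone, and 1, Idi1, differed in size. Mvd, the mevalonate decarboxylase, stood at 80.4, 79.1 and 80.3 FPKM after riebeckite asbestos, 59.9, 62.0 and 61.5 FPKM after tremolite asbestos and 60.2, 57.7 and 57.7 FPKM in untreated cells, and differed by 0.38 (SE 0.038, limma adjusted p = 1.38e-05). Fdps, which makes farnesyl diphosphate, averaged 48.6 ± 1.18 FPKM after riebeckite asbestos, 38.3 ± 0.212 FPKM after tremolite asbestos and 40.1 ± 1.84 FPKM in untreated cells (SD, n = 3 each), and Cyp51, the lanosterol demethylase, differed by 0.36. Sqle, squalene epoxidase, and Insig1, a sterol sensor, were not called (-0.013 and -0.041).

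Promoter windows of 3 of these lipid genes are shown as examples, and a link of their letters to the mineral difference was not tested. RefSeq (GRCm38.p6) gives a window from 250 bases before to 50 bases after the gene start for 20 of the 27 members. On either strand, CCAAT was found for 18 of these 20 members and for 43.5% of 8373 tested genes with a window. A gene was counted once if any of its windows matched. Of all 32851 windows 37.4% held it. In fatty acid synthesis it was found for 9 of 14 members with a window. Among members called between the minerals it was found for 11 of 12 in the sterol list and 8 of 13 in fatty acid synthesis. These shares were close to those of all tested members. A sterol regulatory element of the form TCACNCCAC was found for 1 of the 20 sterol members, Hmgcs1 (HMG-CoA synthase), and in 1.24% of all windows. A match is a description of the letters and not a site. Sc5d (chr9:42264251-42264550, minus strand) is shown as a gene of opposite direction with 1 CCAAT match in capitals, written ATTGG on this strand, and Fasn (chr11:120824498-120824797, minus strand) as another with 3 matches in capitals, 2 of which overlap. Hmgcs1 (chr13:119690101-119690400, plus strand) is shown with the sterol regulatory element in capitals and its CCAAT matches left in lower case.
Sc5d: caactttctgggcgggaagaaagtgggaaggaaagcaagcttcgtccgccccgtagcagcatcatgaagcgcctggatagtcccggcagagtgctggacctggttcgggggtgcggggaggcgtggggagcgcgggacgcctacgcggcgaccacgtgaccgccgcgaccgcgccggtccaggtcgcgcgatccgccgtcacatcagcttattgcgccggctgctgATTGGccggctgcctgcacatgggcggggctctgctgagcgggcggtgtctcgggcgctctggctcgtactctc
Fasn: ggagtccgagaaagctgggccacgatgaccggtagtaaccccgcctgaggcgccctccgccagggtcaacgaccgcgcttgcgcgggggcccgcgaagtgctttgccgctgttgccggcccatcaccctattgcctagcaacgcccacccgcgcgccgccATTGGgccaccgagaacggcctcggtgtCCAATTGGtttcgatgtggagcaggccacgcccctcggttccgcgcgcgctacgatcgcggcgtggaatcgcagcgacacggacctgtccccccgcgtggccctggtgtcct
Hmgcs1: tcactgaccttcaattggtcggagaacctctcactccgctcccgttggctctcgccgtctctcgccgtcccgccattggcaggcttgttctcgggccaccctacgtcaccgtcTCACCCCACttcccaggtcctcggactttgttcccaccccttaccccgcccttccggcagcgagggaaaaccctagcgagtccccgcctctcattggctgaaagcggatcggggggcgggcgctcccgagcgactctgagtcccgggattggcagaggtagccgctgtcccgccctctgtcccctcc

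Of the 3 genes shown, Hmgcs1 had the smallest difference between the minerals, 0.16, beside 0.39 for Sc5d and 0.61 for Fasn. Among 17 genes of fatty acid synthesis 12 were higher after riebeckite asbestos and 3 were lower, where 15.5% and 11.0% of all genes were. The list median was 0.32. Scd1, the stearoyl-CoA desaturase, stood at 109, 108 and 112 FPKM after riebeckite asbestos, 78.6, 82.9 and 80.3 FPKM after tremolite asbestos and 86.2, 85.4 and 84.7 FPKM in untreated cells, a difference of 0.44 (SE 0.032, limma adjusted p = 1.27e-06). The 3 groups did not overlap, but tremolite asbestos was not called against untreated cells (-0.083, limma adjusted p = 0.078). Acaca, acetyl-CoA carboxylase, the committed step of the pathway, differed by 0.46, Fads2, a desaturase of polyunsaturated fatty acids, by 0.71, and Mid1ip1, an activator of acetyl-CoA carboxylase, by 0.82. The exceptions were Elovl6 (-1.12), Acly (-0.21), which supplies cytosolic acetyl-CoA, and Elovl5 (-0.091). Of 21 LXR and lipid efflux genes 6 were higher and 3 lower, with the cholesterol exporter gene Abca1 higher at 37.4, 32.5 and 32.3 FPKM after riebeckite asbestos, 19.3, 20.7 and 20.0 FPKM after tremolite asbestos and 11.3, 12.1 and 12.3 FPKM in untreated cells. The fatty acid carrier Fabp4 was lower, at 33.4 ± 1.301 FPKM after riebeckite asbestos, 60.7 ± 4.62 FPKM after tremolite asbestos and 95.7 ± 1.81 FPKM in untreated cells (SD, n = 3 each).

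The sterol difference between the minerals was present in fragments too. Of the 27 sterol genes 12 were higher after riebeckite than after tremolite fragments and 0 were lower, where 5.31% and 6.01% of all genes were (limma, and 17 and 0 at an unadjusted p under 0.05). The interaction of mineral and habit tests whether the difference between the minerals was the same in asbestos and in fragments, and it was called for 417 genes (3.93%). It was called for 1 of the 27, Acat2, at 0.39 (limma adjusted p = 0.0126). The mean log2 level of the list was 4.55 to 4.58 in the riebeckite asbestos libraries, 4.32 to 4.37 in the tremolite asbestos libraries and 4.35 to 4.47 in untreated cells.

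Many NF-kB and cytokine genes were raised by both minerals and some farther by riebeckite asbestos, and here the mineral difference was not the same in fragments. NF-kB dimers switch on inflammatory genes together with their own inhibitors. Of 25 genes for NF-kB subunits and feedback 9 were higher after riebeckite asbestos and 0 lower, 7 of them in the size class. Over all genes 15.5% were higher and 11.0% lower. At an unadjusted p under 0.05 in limma 13 were higher and 1 lower. In fragments 0 were higher after riebeckite and 7 were lower, and 0 and 12 at an unadjusted p under 0.05. Over all genes 5.31% were higher and 6.01% lower after riebeckite than after tremolite fragments. The interaction was called for 10 of the 25, beside 3.93% of all genes. All 10 were positive, so that riebeckite exceeded tremolite by more in asbestos than in fragments. Nfkbia, the inhibitor IκBα, differed between the minerals by 0.34 in asbestos and -0.43 in fragments, an interaction of 0.76 (SE 0.14, limma adjusted p = 0.0116). Nfkb2, the p100 precursor, stood at 28.5, 28.1 and 26.3 FPKM after riebeckite asbestos, 23.4, 22.3 and 21.7 FPKM after tremolite asbestos and 15.1, 15.1 and 15.98 FPKM in untreated cells. In fragments its levels were 21.0, 19.3 and 19.9 FPKM after riebeckite fragments, against 22.7, 23.5 and 21.6 FPKM after tremolite fragments, so that the order of the minerals was turned round. NF-kB means on the log2 scale were 4.04 to 4.13 in the riebeckite asbestos libraries, 3.92 to 3.94 in the tremolite asbestos libraries and 3.56 to 3.61 in untreated cells. Icam1, an adhesion receptor, had 0.23 in asbestos and -0.27 in fragments. Rela, Nfkbib and Nfkbie were called in the interaction as well (0.29, 0.50 and 0.56).

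Among 21 cytokines and chemokines 8 were higher and 3 lower after riebeckite asbestos, where 15.5% and 11.0% of all genes were. Il1b, interleukin 1β (ENSMUSG00000027398.13, chr2:129364570-129371139, minus strand), stood at 46.5, 39.3 and 40.8 FPKM after riebeckite asbestos, 23.8, 27.0 and 25.3 FPKM after tremolite asbestos and 9.37, 11.1 and 12.1 FPKM in untreated cells. The 3 groups did not overlap, and the minerals differed by 0.71 (SE 0.087, limma adjusted p = 7.35e-05). In fragments, Il1b stood at 26.0, 24.8 and 24.8 FPKM after riebeckite fragments, against 21.0, 21.8 and 24.7 FPKM after tremolite fragments, a difference of 0.16. Il1a stood at 140.2, 134 and 132 FPKM after riebeckite asbestos, 104, 109 and 110.0 FPKM after tremolite asbestos and 61.9, 62.9 and 67.6 FPKM in untreated cells. The IL-6 family member Osm, oncostatin M, averaged 2.68 ± 0.173 FPKM after riebeckite asbestos, 1.48 ± 0.192 FPKM after tremolite asbestos and 0.738 ± 0.149 FPKM in untreated cells (SD, n = 3 each), the stress cytokine Gdf15 differed by 0.52, and the chemokine Ccl17 by 0.54. Tnf, raised by both minerals, was at 19.7, 17.9 and 14.9 FPKM after riebeckite asbestos, 16.3, 16.03 and 16.5 FPKM after tremolite asbestos and 6.19, 7.64 and 7.79 FPKM in untreated cells. The asbestos groups overlapped for Tnf, and the difference between them was 0.087 (SE 0.12, limma adjusted p = 0.646). The interaction was called for 8 of the 21, beside 3.93% of all genes. Il18, which the inflammasome matures like interleukin 1β, went the other way and stood at 38.1, 43.9 and 41.6 FPKM after riebeckite asbestos, 70.0, 62.9 and 68.0 FPKM after tremolite asbestos and 98.1, 103 and 103 FPKM in untreated cells. Of 22 inflammasome and pyroptosis genes 3 were higher and 9 lower after riebeckite asbestos, or 5 lower without tremolite asbestos library 3. Casp1, its protease, differed by -0.32, and Gsdmd, the pore-forming gasdermin D, by -0.20, and Txnip, a thioredoxin inhibitor, averaged 59.9 ± 2.13 FPKM after riebeckite asbestos, 90.3 ± 6.46 FPKM after tremolite asbestos and 106 ± 8.25 FPKM in untreated cells (SD, n = 3 each). Nlrp3 itself was not called (-0.23, limma adjusted p = 0.198).

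**Figure D5:**
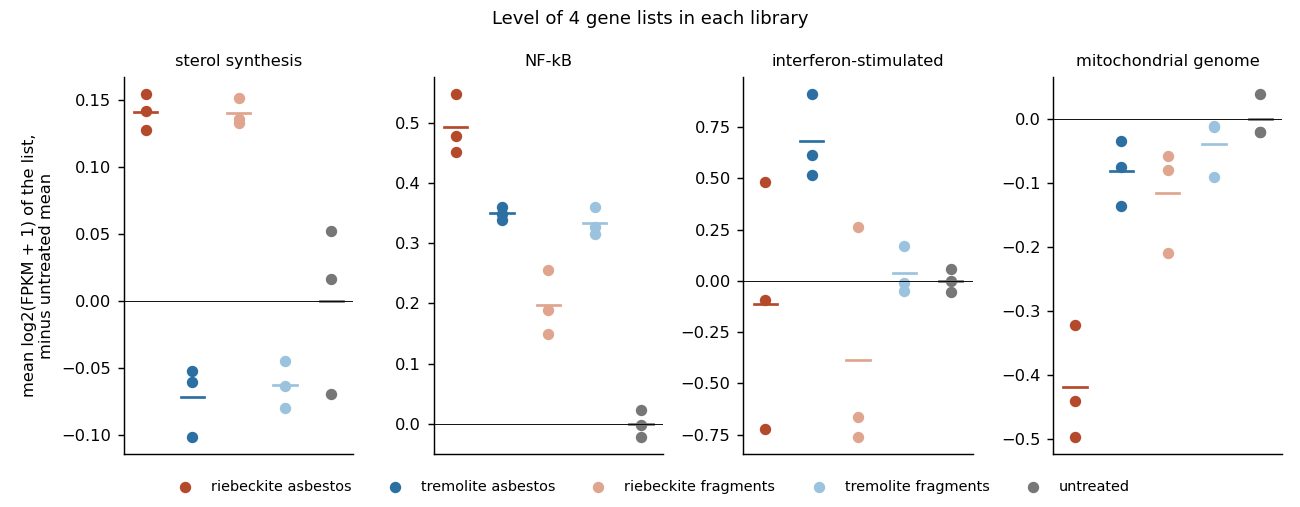
Mean log2(FPKM + 1) over the tested members of 4 gene lists in each library, minus the mean of the 3 untreated libraries, with a line at the group mean. For sterol synthesis both riebeckite groups lie above both tremolite groups. For NF-kB riebeckite exceeds tremolite in asbestos but not in fragments. For interferon-stimulated genes the riebeckite asbestos libraries are spread from 2.73 to 3.93 in mean log2 level before centring, and for the mitochondrial genome the riebeckite asbestos libraries are lowest.

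Several antioxidant genes were higher after riebeckite asbestos, and Hmox1 was raised by both minerals. Nrf2 is the factor that switches on antioxidant and glutathione genes. Of 27 Nrf2 and glutathione genes 14 were higher after riebeckite asbestos and 3 lower, where 15.5% and 11.0% of all genes were, with a list median of 0.18. Hmox1, heme oxygenase, which frees iron from heme (ENSMUSG00000005413.8, chr8:75093621-75100589, plus strand), stood at 212, 195 and 201 FPKM after riebeckite asbestos, 139, 134 and 124 FPKM after tremolite asbestos and 88.6, 84.2 and 82.0 FPKM in untreated cells. It differed by 0.61 (SE 0.050, limma adjusted p = 2.71e-06), and in fragments by 0.047, with an interaction of 0.57 (limma adjusted p = 0.00142). Txnrd1, a thioredoxin reductase, stood at 52.1, 48.6 and 46.1 FPKM after riebeckite asbestos, 32.8, 33.9 and 36.3 FPKM after tremolite asbestos and 29.8, 29.9 and 32.7 FPKM in untreated cells, and only riebeckite asbestos was called against untreated cells. Slc7a11, the cystine importer, differed by 0.38, and Slc48a1, a heme transporter, by 0.46. Of 17 iron handling genes 6 were higher and 2 lower, where 15.5% and 11.0% of all genes were. Slc11a1, the phagosomal metal transporter NRAMP, averaged 8.02 ± 0.809 FPKM after riebeckite asbestos, 3.54 ± 0.263 FPKM after tremolite asbestos and 1.79 ± 0.158 FPKM in untreated cells (SD, n = 3 each), and its difference of 0.99 was not called in sums of transcripts (limma adjusted p = 0.411). The iron exporter gene Slc40a1 was lower (-0.24). Of 14 genes of metallothioneins and zinc transport 4 were higher, among them Mt2 (0.35), and 0 lower (limma, and 5 and 0 at an unadjusted p under 0.05).

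Lysosome, matrix and surface receptor genes moved in both directions. For comparison with each list count given here, 15.5% of all genes were higher and 11.0% lower after riebeckite asbestos. Of 47 lysosome genes 18 were higher and 9 lower after riebeckite asbestos, with 5 lower without tremolite asbestos library 1 or 3 and 10 higher in sums of transcripts. Ctsk, the collagen-degrading protease cathepsin K, stood at 1843, 1759.9 and 1810.1 FPKM after riebeckite asbestos, 1351, 1243 and 1252 FPKM after tremolite asbestos and 854, 806 and 758 FPKM in untreated cells, and differed by 0.49 (SE 0.048, limma adjusted p = 1.18e-05). Of 18 matrix and matricellular genes 6 were higher and 4 lower. Spp1, osteopontin, stood at 2293, 2352 and 2498 FPKM after riebeckite asbestos, 1712, 1634 and 1725 FPKM after tremolite asbestos and 702, 665 and 631 FPKM in untreated cells. Tgm2, a transglutaminase, differed by 0.72. Of 8 growth factor and fibrosis genes 4 were higher and 0 lower (Inhba, Osm, Gdf15 and Tgfb1), with 4 and 1 at an unadjusted p under 0.05 in limma. Of 33 alveolar macrophage genes 12 were higher, led by the cytoskeletal keratin gene Krt79 (1.04), Ear1, a ribonuclease (0.86), and the surface lectin Siglecf (0.84), with reads of the Ear family uncertain between near-identical genes, and 12 were lower, among them Fabp4 and the scavenger receptor Marco (-0.24). Of 14 C-type lectins 3 were higher, among them Clec5a, an activating receptor (0.47), and 7 lower, among them Clec12a, an inhibitory receptor, at 0.301, 0.395 and 0.374 FPKM after riebeckite asbestos, 1.18, 1.09 and 1.36 FPKM after tremolite asbestos and 3.75, 3.23 and 3.88 FPKM in untreated cells. Of 15 scavenger receptors 7 were higher and 6 lower. Mrc1, the mannose receptor, stood at 182, 189 and 196 FPKM after riebeckite asbestos, 263, 260.2 and 274 FPKM after tremolite asbestos and 329.7, 329 and 329.5 FPKM in untreated cells, and differed by -0.49 (SE 0.032, limma adjusted p = 7.10e-07). Fcgr1, the high-affinity Fcγ receptor, differed by -0.74, and Cd14, a co-receptor for endotoxin, by 0.72.

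Interferon-stimulated genes tended to be lower after riebeckite asbestos, but single libraries decided how many were called. Type I interferons switch on these antiviral genes through the ISGF3 complex, of which Irf9 is a subunit. Of 41 tested genes 0 were higher and 14 lower after riebeckite asbestos (limma, and 0 and 31 at an unadjusted p under 0.05). Over all genes 15.5% were higher and 11.0% lower. The list median was -0.73 between the minerals, -0.038 for riebeckite asbestos and 0.69 for tremolite asbestos against untreated cells. The mean log2 level of the list was 3.36, 3.93 and 2.73 in riebeckite asbestos libraries 1, 2 and 3, 3.97, 4.07 and 4.36 in the tremolite asbestos libraries and 3.51, 3.39 and 3.45 in untreated cells. Riebeckite asbestos library 2 was thus close to the tremolite asbestos libraries and library 3 far below. In riebeckite fragments library 2 was also the highest, with 2.79, 3.71 and 2.69. The count of lower genes was 33 without riebeckite asbestos library 2, 6 without riebeckite asbestos library 3 or tremolite asbestos library 3, 7 without riebeckite asbestos library 1 or tremolite asbestos library 2, 12 without tremolite asbestos library 1 and 9 without any 1 of the untreated libraries. It was also 9 from sums of transcripts. The interaction of mineral and habit was called for 0 of the 41 (limma, and 1 at an unadjusted p under 0.05), beside 3.93% of all genes called.

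Phf11b (ENSMUSG00000091649.3, chr14:59320964-59341351, minus strand) kept its call without any 1 library and stood at 1.88, 4.80 and 1.54 FPKM after riebeckite asbestos, 7.80, 9.002 and 12.8 FPKM after tremolite asbestos and 6.83, 5.83 and 6.95 FPKM in untreated cells, a difference of -1.61 (SE 0.31, limma adjusted p = 0.00214). Mx1, a dynamin-like antiviral GTPase, stood at 0.171, 0.639 and 0.0254 FPKM after riebeckite asbestos, 1.51, 1.51 and 2.37 FPKM after tremolite asbestos and 1.71, 1.29 and 1.09 FPKM in untreated cells, and differed by -1.14. Irf9 stood at 8.33, 10.3 and 7.79 FPKM after riebeckite asbestos, 13.2, 13.97 and 16.02 FPKM after tremolite asbestos and 7.40, 8.45 and 10.3 FPKM in untreated cells. Only its tremolite asbestos libraries were apart from the untreated ones. Ifit2 was at 7.36, 22.4 and 3.48 FPKM after riebeckite asbestos, 25.4, 28.2 and 41.2 FPKM after tremolite asbestos and 16.6, 13.2 and 14.1 FPKM in untreated cells, and Ifit3b at 2.54, 6.40 and 0.975 FPKM after riebeckite asbestos, 7.44, 9.35 and 13.3 FPKM after tremolite asbestos and 5.31, 4.08 and 4.56 FPKM in untreated cells. Both encode antiviral RNA-binding proteins, and their differences of -1.74 and -1.53 had limma adjusted p = 0.0419 and 0.0386. Without riebeckite asbestos library 3 these became limma adjusted p = 0.161 and 0.150. Leaving out riebeckite asbestos library 1, tremolite asbestos library 2 or tremolite asbestos library 3 ended both calls as well, and leaving out tremolite asbestos library 1 or any 1 untreated library ended that of Ifit2. Rnf213, a ubiquitin ligase, lost its call without riebeckite asbestos library 3 or tremolite asbestos library 3 (limma adjusted p = 0.0682 and 0.0671). Ifi204, a DNA sensor, differed by -1.33, and Gbp9 by -1.31, which turned to 0.22 in sums of transcripts (limma adjusted p = 0.606). Reads of the Ifit, Ifi200 and Gbp families can be shared between near-identical genes.

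Promoter windows of both Phf11b and Ifit3b are shown because they hold letters that match the response element of interferon-stimulated genes. As for the lipid genes, a match describes letters and not a site, and its function was not tested. GAAANNGAAA, the core of the interferon-stimulated response element, was found on either strand for 20 of 31 members with a RefSeq window. It was found for 8 of the 11 such members called between the minerals. The share was 3.44% of all windows and 3.92% of tested genes with a window. Phf11b (chr14:59341281-59341580, minus strand) and Ifit3b (chr19:34607707-34608006, plus strand) are shown with the matches in capitals, written TTTCNNTTTC on the other strand.
Phf11b: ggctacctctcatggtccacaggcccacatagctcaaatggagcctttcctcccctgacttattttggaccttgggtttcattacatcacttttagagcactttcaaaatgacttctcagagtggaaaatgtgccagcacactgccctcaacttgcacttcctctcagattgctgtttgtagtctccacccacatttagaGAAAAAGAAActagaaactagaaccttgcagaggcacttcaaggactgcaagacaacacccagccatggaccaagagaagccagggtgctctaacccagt
Ifit3b: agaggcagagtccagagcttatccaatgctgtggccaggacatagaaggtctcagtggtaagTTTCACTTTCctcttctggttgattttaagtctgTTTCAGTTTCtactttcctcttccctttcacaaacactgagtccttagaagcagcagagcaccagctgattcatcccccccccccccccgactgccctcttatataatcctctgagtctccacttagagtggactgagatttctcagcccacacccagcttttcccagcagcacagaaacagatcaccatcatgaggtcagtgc

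All 13 protein-coding transcripts of the mitochondrial genome were lower after riebeckite asbestos (limma), with a list median of -0.33. These encode subunits of the respiratory chain and ATP synthase. mt-Co2, a subunit of cytochrome oxidase, stood at 1239, 1254 and 1366 FPKM after riebeckite asbestos, 1743, 1590.4 and 1734 FPKM after tremolite asbestos and 1889, 1819 and 1824 FPKM in untreated cells, and differed by -0.39 (SE 0.055, limma adjusted p = 0.000209). mt-Cytb, cytochrome b, averaged 1836 ± 114 FPKM after riebeckite asbestos, 2389 ± 63.6 FPKM after tremolite asbestos and 2524 ± 69.8 FPKM in untreated cells (SD, n = 3 each). Its difference of -0.38 was not called after quantile normalization (-0.095, limma adjusted p = 0.167). The share of the 13 transcripts in summed FPKM was 6.44 ± 0.419% after riebeckite asbestos, 8.15 ± 0.172% after tremolite asbestos and 8.65 ± 0.181% in untreated cells (SD, n = 3 each), a difference of -1.71 percentage points between the minerals with p = 0.1 in a 2-sided exact permutation test, which cannot give less with 3 libraries against 3. Of 38 nuclear genes of the respiratory chain, 8 were higher and 1 lower after riebeckite asbestos, where 15.5% and 11.0% of all genes were.

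Of 24 glycolysis genes 9 were higher after riebeckite asbestos and 2 lower, where 15.5% and 11.0% of all genes were. Hk2, hexokinase 2, stood at 29.2, 30.2 and 28.3 FPKM after riebeckite asbestos, 21.5, 23.1 and 21.5 FPKM after tremolite asbestos and 16.1, 17.2 and 17.1 FPKM in untreated cells, and Slc16a1, a lactate and monocarboxylate transporter, differed by 0.83 (SE 0.048, limma adjusted p = 3.48e-07). Of 47 DNA replication genes 13 were higher and 1 lower. Relative to untreated cells, 2 of these genes rose and 27 fell after riebeckite asbestos, against 0 and 33 after tremolite asbestos (limma, and 0 and 36 at an unadjusted p under 0.05). Over all genes 21.0% rose and 24.3% fell after riebeckite asbestos, and 10.0% rose and 13.9% fell after tremolite asbestos. Mcm2, a helicase subunit, stood at 11.8, 11.3 and 11.5 FPKM after riebeckite asbestos, 8.59, 9.24 and 8.49 FPKM after tremolite asbestos and 11.2, 11.0 and 11.9 FPKM in untreated cells, with tremolite asbestos alone apart from untreated cells. Dnmt1, the maintenance DNA methyltransferase, averaged 38.8 ± 0.415 FPKM after riebeckite asbestos, 32.2 ± 1.499 FPKM after tremolite asbestos and 31.1 ± 0.355 FPKM in untreated cells (SD, n = 3 each). Pcna, the sliding clamp, differed by 0.17. Shares below those of all genes were found for mitosis (3 higher and 2 lower of 36) and cytosolic ribosomal proteins (2 and 7 of 77). The remaining lists held genes on both sides, with 3 higher and 10 lower of 22 immediate early transcription factors, 2 and 7 of 22 MHC and antigen presentation genes (7 became 11 without riebeckite asbestos library 2 and 4 without library 3 of either asbestos), 7 and 3 of 22 ATF4 targets and 3 and 3 of 11 complement lines. For p53 targets the counts were 4 and 5 of 24, and for the unfolded protein response 5 and 5 of 28, where 15.5% and 11.0% of all genes were higher and lower.

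The 417 genes of the interaction had 281 positive and 136 negative values. Fragments were given at other mass doses than asbestos, so habit and mass dose cannot be told apart. Inhba differed between the minerals by 1.06 in asbestos and -0.11 in fragments, an interaction of 1.17 (SE 0.12, limma adjusted p = 0.000708). Its FPKM in fragments were 18.2, 17.0 and 17.4 FPKM after riebeckite fragments, against 19.8, 19.7 and 17.4 FPKM after tremolite fragments, with overlap between the minerals. Tgm2 had 0.72 in asbestos and 0.046 in fragments, and Hmox1 behaved alike. Slco2a1, Fpr2 and Clec4n, of opposite direction in asbestos, differed in fragments by 1.05, -0.66 and -0.69, and the interaction was not called for these 3. Hmg20b and Tsfm, also of opposite direction in asbestos, differed in fragments by -0.088 and 0.023, with called interactions of 0.50 and 0.38. Tgfbi had the same order of minerals in both habits and a larger difference in fragments, -1.90, where it stood at 4.02, 4.04 and 4.16 FPKM after riebeckite fragments, against 17.6, 17.0 and 19.2 FPKM after tremolite fragments.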

How the data were processed

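RNA of MPI macrophages (5 groups of 3 libraries, 24 h) was extracted with TRIzol, enriched with oligo(dT) and made into strand-marking dUTP libraries, per the labels' protocols. The submitters' processing notes name cutadapt, HISAT2, StringTie and the mouse build GRCm38, with no roles. The authors deposited normalized FPKM values per gene and per transcript. The header names no unit: that these are FPKM was read from the values and from StringTie. Counts could not be recovered, so read depth is unknown and no counting interval is given.

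For the results given here, genes with at least 0.5 FPKM in 3 libraries were kept and log2(FPKM + 1) was fitted in limma 3.58.1 (R 4.3.3) in 1 model of all 15 libraries, with a mean-variance trend, 2-sided tests and Benjamini-Hochberg adjustment over all genes tested at 0.05. A fold change on this scale understates the change of low genes. Classes combine 3 contrasts of that fit. Size needs both minerals called against untreated cells with 1 sign, and direction with opposite signs. The script was tested on simulated data. Other scalings, pseudocounts, filters, fits, sums of the 22795 deposited transcripts and leaving out each library were tried. Promoter windows are from RefSeq GRCm38.p6, and Python 3.11.15 with matplotlib 3.10.9 drew the figures.

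Named genes were the 12 largest rises and 12 largest falls with no overlap between the libraries of the 2 minerals and at least 1 FPKM in the higher group, the 10 largest direction genes each way, and leading genes of the size class and of the gene lists. The members and lists were chosen with earlier results of these data known. Samm50, Trim8, B3galt4, Hmgcs1, Fads2, Idi1, Rrm2, Emp1, Cdkn1c, Dusp6, Adgre1, Csf1r and Cd68, and list members named with only a difference, were chosen after their values were seen. No gene list was tested as a set. A few genes are not reported here by name.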

Additional observations from a re-analysis of the deposited data

Results flagged for a closer look

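The results here were flagged because the difference between riebeckite and tremolite was not the same in asbestos as in fragments, by the interaction of mineral and habit in limma over all genes (adjusted p under 0.05). The interaction is the difference between the minerals in asbestos minus that in fragments, on the log2(FPKM + 1) scale. It was called for 281 genes with positive and 136 genes with negative values. Among the 122 named genes 48 were called, beside 3.93% of all genes tested. The interaction contains the asbestos libraries by which many of these genes were chosen, so the larger share among them is no separate support.

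Cytokines, growth factors and NF-kB genes had positive values, with Inhba (1.17), Gdf15 (0.77), Tnf (0.69), Osm (0.62), Il1b (0.55), Il1a (0.32), Nfkb2 (0.45), Sod2 (0.36) and Zc3h12a (0.34). The cytokine Il18 was negative, at -0.30. Positive values were found as well for genes of oxidant defence, metabolism and transport, with Hmox1 (0.57), Slc7a11 (0.42), Maff (0.58), Slc11a1 (0.47), Slc6a12 (0.74), Slco4a1 (1.10), Hk2 (0.37), Abca1 (0.34), Acat2 (0.39) and Acod1 (0.93). Matrix, clotting and surface genes were positive in Tgm2 (0.67), Procr (0.60), Gpr84 (1.00), Arap3 (0.71), Krt79 (0.88), Csn2 (0.45) and Csf1r (0.27). Tgfbi had an interaction of 0.95 beside a lower level after riebeckite in both habits. Of the direction genes, Hmg20b (0.50), Tsfm (0.38), Trim8 (0.25) and Samm50 (0.24) were positive, and Cd52 (-0.37) and Dhrs3 (-0.21) were negative.

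Negative values were found for surface receptors and immune genes, with Adgre4 (-0.64), Clec4a3 (-0.71), Ms4a8a (-0.60), Mrc1 (-0.39), H2-DMa (-0.33), Gbp8 (-0.66) and Gbp9 (-1.18). They were found for lipid and cell cycle genes too, with Elovl6 (-0.51), Fabp4 (-0.58), Txnip (-0.43) and Cdkn1c (-0.47), and for mitochondrial genome transcripts, with mt-Atp6 (-0.40), mt-Atp8 (-0.38) and mt-Co2 (-0.31).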

How the results depend on the processing

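Of 122 named genes, 112 kept their call, and where called their direction, under every setting tried for them, up to 20. A change of sign in a gene that stayed uncalled was not counted. The minimum of 1 for the absolute log2 difference was not applied to single genes, so that setting could not change them. Among the called genes 1 reversed, Gbp9, at 0.22 in sums of transcripts. The cause was not tested. The direction class of 23 genes held 12 after rescaling to nuclear genes, 13 with only the 3 groups in the fit, 5 in sums of transcripts, 0 at an absolute log2 difference of at least 1, 821 by sign alone, 108 at an adjusted p under 0.2 against untreated cells and 11 to 28 with 1 library left out. The size class of 986 held 26 at an absolute log2 difference of at least 1 and 1995 by sign alone, which needs no call against untreated cells. Genes higher and lower numbered 25 and 26 at an absolute log2 difference of at least 1. With 1 library left out, 1215 to 1624 genes were higher, 850 to 1152 lower and 791 to 912 in the size class. Interactions among the named genes numbered 48, and 27 in sums of transcripts. The share of called genes that were higher was 58.4%, and 50.2% under TMM rescaling, 50.1% under quantile normalization and 50.2% under rescaling to nuclear genes, where 879, 895 and 879 of the 986 size genes and 17, 17 and 9 of the 23 direction genes were kept.

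The main fit did not treat the riebeckite and tremolite asbestos libraries as paired by replicate number. In their deviations from the group mean, same-numbered riebeckite and tremolite asbestos libraries correlated at 0.040, 0.058 and -0.061. These values cannot show whether the cultures were run in pairs, and other pairs of groups were not checked. With the replicate block 1698 genes were higher, 1233 lower, 1059 in the size class and 23 in the direction class, and 45 named genes had an interaction.

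Read depth is unknown, so low FPKM values carry an unknown counting error.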
